A study of Danio rerio with 6 samples.

Results

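Apolipoproteins are the proteins that carry lipid through the blood, and the liver secretes most of them. The genes described here are the major apolipoprotein genes of zebrafish (Danio rerio) liver, chosen by name: apoa1a, apoa1b, apoa2, apoa4a, apoa4b.1, apobb.1, apoba, apoea, apoeb and apoc1. A row of the counts table was taken when its symbol equalled one of these 10 names, or when its all-capital symbol equalled a name without the letter and number that tell paralogs apart. The rule was met by 7 of the 25640 genes listed. They were apoa1a (ENSDARG00000012076), apoa2 (ENSDARG00000015866), apoa4b.1 (ENSDARG00000040298), apobb.1 (ENSDARG00000022767), apoeb (ENSDARG00000040295), apoc1 (ENSDARG00000092170) and APOB (ENSDARG00000042780), the last matched through its capital symbol. apoa1b, apoa4a and apoea were not analysed here. All 7 genes had at least 38702 reads in every library and passed the filter on low counts.

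The libraries were made from polyadenylated RNA of adult liver, 3 of wild-type genotype (WT) and 3 of the transgenic genotype lf:Yap. Yap is a transcriptional coactivator restrained by the Hippo kinase pathway, and the series concerns its effect on metabolism and growth of the liver. The labels give neither the promoter and allele of the transgene nor the sex and age of the fish beyond adult, and they do not say whether a library is 1 fish. The p-values therefore speak only of how far these samples scatter, and part of that scatter may be technical.

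Lipoproteins are particles with a lipid core and a coat of apolipoproteins. ApoB is a very large, non-exchangeable protein, and the microsomal triglyceride transfer protein loads it with lipid to make very low density particles in the liver and chylomicrons in the intestine. ApoA-I and apoA-II are the main proteins of high density lipoprotein (HDL), apoE is a ligand of the low density lipoprotein receptor family, and the small C apolipoproteins tune lipase activity and particle uptake. Several of these genes have paralogs in zebrafish.

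Total gene counts ran from 71581315 to 87543545 per library. YAP1 lay between 20.4 and 27.4 CPM (normalised counts scaled by library size) in the WT libraries and between 291 and 443 CPM in the lf:Yap libraries, in the direction of the labels. The summed hepatocyte markers stood at 79158 to 85371 CPM in WT and at 99143 to 105290 CPM in lf:Yap. Of the 17 marker rows tested edgeR called 0, limma-voom 0 and DESeq2 3, where they called 0.665%, 0.754% and 4.57% of all genes. An unadjusted edgeR p under 0.05 was seen for 5 rows, beside 11.3% of all genes. These counts are a description, because the lists were chosen with earlier results of these data known. The part of the difference in marker sums in the apolipoprotein values was not tested. The transferrin gene tfa is one of these markers, and it alone read 20324 to 24218 CPM in WT against 29871 to 41430 CPM in lf:Yap. Markers of cholangiocytes (11 rows), endothelial and stellate cells (14 rows) and erythrocytes (8 rows) had 0 rows called by edgeR, beside 0.665% of all genes. DESeq2 called 0, 0 and 1 of them, beside 4.57%. An unadjusted edgeR p under 0.05 was seen for 2, 4 and 1 rows, beside 11.3% of all genes. The sums of these lists ran over the 6 libraries from 2434 to 3453, from 84.8 to 165 and from 68.0 to 147 CPM. Exocrine pancreas, an organ that lies against the zebrafish liver, left a varying amount of RNA: its 16 marker genes summed to 19613, 784 and 1736 CPM in WT replicates 1, 2 and 3 and to 15280, 64.3 and 21528 CPM in lf:Yap replicates 1, 2 and 3. WT replicate 1 and lf:Yap replicates 1 and 3 were thus the libraries with many pancreas reads. CPM are scaled to trimmed-mean (TMM) library sizes here.

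The counts of apobb.1 need a caution before any value of it is read. The row HPCAL1 (ENSDARG00000022763), named for a neuronal calcium sensor, held almost the same counts. In WT replicates 1, 2 and 3 it read 850021, 1317802 and 984865 against 850070, 1317656 and 984866 for apobb.1. The lf:Yap replicates 1, 2 and 3 read 1047603, 1053825 and 1572925 against 1047072, 1053998 and 1572674. The rows differed by at most 0.0507% in any library, and hpcal1 is the gene next to apobb.1 in the RefSeq annotation of GRCz12tu. Among 5850 rows with a mean of at least 1000 counts, 2 pairs agreed within 0.1% in all 6 libraries, and for the other 6 apolipoprotein genes no row came closer than 27.6% in its worst library. Reads of apobb.1 and HPCAL1 cannot be told apart in this table, and a read counted at both would enter the library total more than once.

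None of the 7 apolipoprotein genes passed the test between the genotypes. With edgeR's quasi-likelihood test and Benjamini-Hochberg adjustment over 24674 genes, 0 of 7 passed an adjusted p of 0.05, where 0.665% of all tested genes passed. DESeq2 and limma-voom also called 0 of 7, against 4.57% and 0.754% of all genes they tested. At an unadjusted p under 0.05 edgeR found 1 of 7, which was apoa2, against 11.3% of all genes. The median log2 fold change of the 7 genes was 0.08, beside -0.03 over all genes tested, with 4 genes above 0 and 3 below; it was -0.06 with library totals as the only scaling. In bulk liver, fewer cells of a type and less RNA per cell cannot be told apart.

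Together the 7 genes took 5.14%, 5.62% and 4.42% of all gene counts in WT replicates 1, 2 and 3. In lf:Yap replicates 1, 2 and 3 the share was 5.01%, 4.90% and 6.32%. The groups overlapped, and the highest share was that of lf:Yap replicate 3. The means were 5.06% ± 0.603 in WT and 5.41% ± 0.792 in lf:Yap (SD, n = 3 each), a difference of 0.348 percentage points (two-sided exact permutation test, p = 0.7, adjusted 0.7 over 2 share tests). The smallest p that 3 against 3 libraries can give is 0.1. Without lf:Yap replicate 3 the difference was -0.108 percentage points. Leaving the HPCAL1 row out of the total gave 5.13% and 5.50%. Shares count reads, so a long transcript such as that of apoB takes more of them per molecule than a short one.

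**Figure D1:**
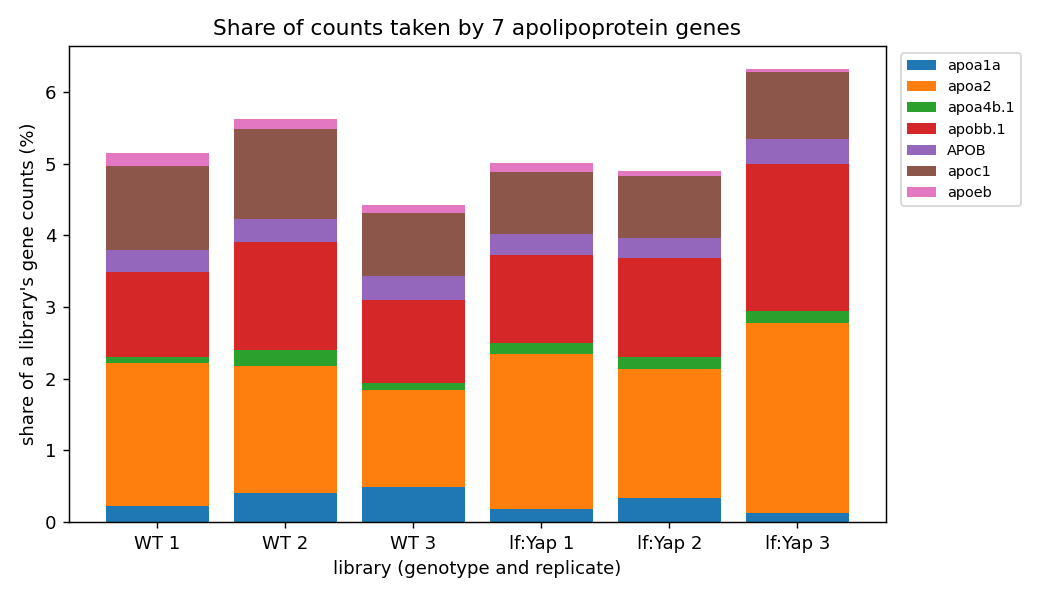
Share of each library's gene counts (%, vertical axis) taken by the 7 apolipoprotein genes, stacked by gene for the 6 libraries (horizontal axis). The totals run from 4.42% in WT replicate 3 to 6.32% in lf:Yap replicate 3, and the bands reflect transcript length as well as abundance.

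Among the genes of HDL proteins, apoa2 and apoa1a had log2 fold changes of opposite sign, and neither passed. apoa2, which encodes apoA-II, read 18000, 17308 and 13284 CPM in WT replicates 1, 2 and 3 and 22399, 18764 and 28212 CPM in lf:Yap replicates 1, 2 and 3. Every lf:Yap library lay above every WT library on this scale, and apoa2 was the 1 of 7 genes whose groups did not overlap, where 17.6% of all genes had groups without overlap. The fitted log2 fold change was 0.51 ± 0.21 (SE), with a 95% interval of 0.02 to 1.005 and an adjusted p of 0.418 (edgeR). As a share of raw counts the groups did overlap: apoa2 took 1.99%, 1.77% and 1.35% in WT and 2.16%, 1.79% and 2.65% in lf:Yap. The log2 fold change was 0.37 with library totals as the only scaling, which lowered the median of all genes by 0.14. Within each genotype apoa2 was higher in the libraries with many pancreas reads, WT replicate 1 and lf:Yap replicates 1 and 3. With a term for high pancreas reads, added after the data were seen, the log2 fold change was 0.39 (adjusted p = 0.591, edgeR). The part of pancreatic tissue in the level of apoa2 was not tested.

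apoa1a, which encodes a zebrafish apoA-I, the chief HDL protein and the activator of cholesterol esterification on HDL, varied as much within the groups as between them. It read 2017, 4042 and 4818 CPM in WT replicates 1, 2 and 3 and 1904, 3578 and 1399.7 CPM in lf:Yap replicates 1, 2 and 3. The highest library held 3.44 times the lowest, and the coefficient of variation was 39.9% within WT and 49.7% within lf:Yap. The log2 fold change was -0.66 ± 0.43 (SE; 95% interval -1.68 to 0.36; edgeR adjusted p = 0.651). It was -1.13 when lf:Yap replicate 2 was left out, -0.40 when lf:Yap replicate 3 was and -0.41 when WT replicate 3 was. The libraries with low apoa1a, WT replicate 1 and lf:Yap replicates 1 and 3, were the libraries with many exocrine pancreas reads. Those pancreas markers took 2.17%, 1.47% and 2.02% of the counts in these libraries and 0.0802%, 0.177% and 0.00614% in WT replicates 2 and 3 and lf:Yap replicate 2. Within the libraries with few pancreas reads apoa1a stood at 4042 and 4818 CPM for WT against 3578 CPM for lf:Yap. Within those with many it stood at 2017 CPM in WT and at 1904 and 1399.7 CPM in lf:Yap. In CPM apoa2, apoa4b.1, apobb.1, APOB, apoc1 and apoeb overlapped between the libraries with many and with few pancreas reads. As a share of raw counts apoa2 did not overlap. It took 1.99%, 2.16% and 2.65% in the libraries with many and 1.77%, 1.35% and 1.79% in those with few. This split was chosen after the data were seen, and the share of all genes that it separates was not computed. A fit with a term for high pancreas reads, added after the data were seen, gave a log2 fold change of -0.30 (adjusted p = 0.714, edgeR). The part of pancreatic tissue in the level of apoa1a was not tested.

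**Figure D2:**
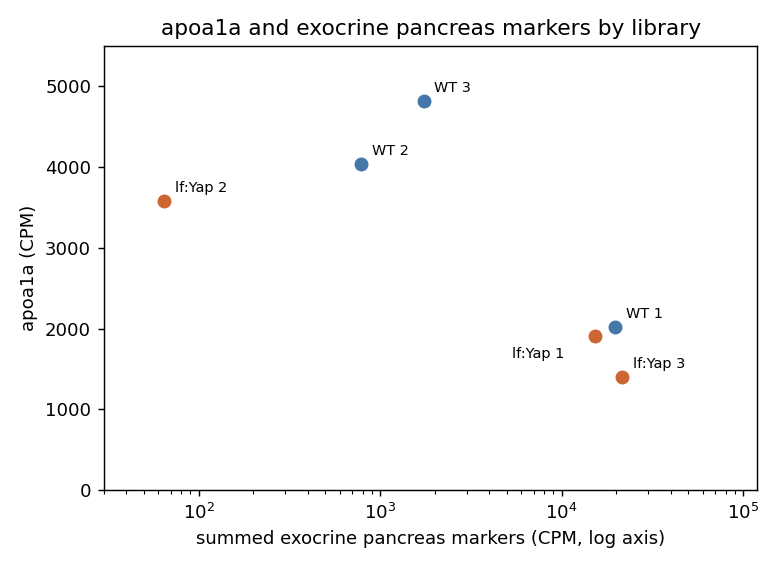
apoa1a (CPM, vertical axis) against the summed CPM of 16 exocrine pancreas markers (horizontal log axis), 1 point per library, blue for WT and orange for lf:Yap. The 3 libraries with 15280 to 21528 CPM of pancreas markers lie between 1399.7 and 2017 CPM of apoa1a and the 3 others between 3578 and 4818 CPM. The split was chosen after the data were seen, and the share of all genes that it separates was not computed.

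apoa4b.1 encodes an apoA-IV, an exchangeable apolipoprotein known from chylomicrons and HDL. It read 754, 2131 and 909.5 CPM in WT replicates 1, 2 and 3 and 1549, 1711 and 1719 CPM in lf:Yap replicates 1, 2 and 3. WT replicate 2 was the highest library of all, and the other WT libraries were the lowest. Its spread was 59.6% of the mean in WT and 5.77% in lf:Yap, and the log2 fold change was 0.39 ± 0.39 (SE; 95% interval -0.51 to 1.30; edgeR adjusted p = 0.794). Without WT replicate 2 the log2 fold change was 1.003, with an adjusted p of 0.193, the lowest adjusted p of any of the 7 genes in 17 alternative settings. It was 0.14 when WT replicate 1 was left out (edgeR adjusted p = 0.935) and 0.20 when WT replicate 3 was. With its tandem relatives apoa4b.2 and apoa4b.3 it kept a near-constant proportion. The 3 genes summed to 1069.9, 3009 and 1279 CPM in WT and to 2344, 2589 and 2419 CPM in lf:Yap, while apoa4b.1 kept 66.1% to 71.1% of their reads in every library. Near-identical stretches of these copies could split or lose reads in counting, so the division among them is uncertain. Intestinal markers, which belong to the other organ that makes apoA-IV, summed to 45.2, 82.2 and 27.7 CPM in WT and to 170.3, 3.06 and 5.92 CPM in lf:Yap once 2 markers shared with the pancreas list were set aside. WT replicate 2, the highest in apoa4b.1, was second to lf:Yap replicate 1 in these 8 markers. The lowest sums were those of lf:Yap replicates 2 and 3, which read more apoa4b.1 than lf:Yap replicate 1. The part of intestinal tissue in the level of apoa4b.1 was not tested.

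The apoB genes code for the scaffold of the particles that leave the liver. Counts of apobb.1 were nearly equal to those of HPCAL1 in each library. apobb.1 read 10718, 14709 and 11407 CPM in WT replicates 1, 2 and 3 and 12740, 14516 and 21797 CPM in lf:Yap replicates 1, 2 and 3. The groups overlapped, and lf:Yap replicate 3 stood apart at the top. The log2 fold change was 0.41 ± 0.25 (SE; 95% interval -0.16 to 0.99; edgeR adjusted p = 0.609), and without lf:Yap replicate 3 it was 0.15. APOB had the narrowest range over the 6 libraries of the 7 genes (1.36-fold), with 2728, 3127 and 3347 CPM in WT and 3081, 2913 and 3721 CPM in lf:Yap. For APOB the log2 fold change was 0.08 ± 0.175 (SE; 95% interval -0.33 to 0.49), and its sign turned to -0.06 with library totals as the only scaling and to -0.03 without lf:Yap replicate 3. Of the reads at these genes apobb.1 took 79.8% ± 2.58 in WT and 83.1% ± 2.45 in lf:Yap (SD, n = 3 each; two-sided exact permutation test, p = 0.2, adjusted 0.4 over 2 share tests). A share within a library does not depend on scaling, but this one depends on which genes are counted. With apobb.2 among the apoB genes, apobb.1 took 78.6% ± 2.38 in WT and 78.8% ± 5.07 in lf:Yap, a difference of 0.225 percentage points.

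Another apoB gene, apobb.2 (ENSDARG00000075016), is no member of the set but differed by more than any of them. It read 376.6, 256.4 and 79.1 CPM in WT replicates 1, 2 and 3 and 1604.6, 612 and 793.5 CPM in lf:Yap replicates 1, 2 and 3. Every lf:Yap library was above every WT library, with a 20.3-fold range over the 6. The log2 fold change was 2.08 ± 0.605 (SE; 95% interval 0.66 to 3.50), with an adjusted p of 0.249 by edgeR and of 0.0130 by DESeq2, and of 0.240 to 0.580 by edgeR without 1 library. Its part of all apoB reads was 2.72%, 1.42% and 0.534% in WT replicates 1, 2 and 3 and 9.21%, 3.39% and 3.02% in lf:Yap replicates 1, 2 and 3.

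apoc1 and apoeb, which are neighbours in the genome, both had log2 fold changes below 0. apoc1, whose small product curbs lipid transfer and particle uptake, read 10566, 12201 and 8604 CPM in WT replicates 1, 2 and 3 and 8982, 9129 and 9936 CPM in lf:Yap replicates 1, 2 and 3. The lf:Yap libraries lay within the WT range, and the log2 fold change was -0.16 ± 0.18 (SE; 95% interval -0.58 to 0.25; edgeR adjusted p = 0.819). Within the summed counts of the 7 genes apoc1 took 22.8%, 22.2% and 19.8% in WT and 17.3%, 17.8% and 14.8% in lf:Yap, without overlap. This share also falls when apoa2 or apobb.1 rises, and of the 7 such shares it was the only one without overlap. In CPM 17.6% of all tested genes had groups without overlap. No test was made of the apoc1 share.

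apoeb encodes an apoE, the receptor ligand that hepatocytes and also macrophages secrete. It read 1614, 1436.5 and 1064 CPM in WT replicates 1, 2 and 3 and 1309.6, 671 and 536 CPM in lf:Yap replicates 1, 2 and 3. lf:Yap replicates 2 and 3 were below every WT library, and lf:Yap replicate 1 lay inside the WT range. The log2 fold change was -0.71 ± 0.36 (SE; 95% interval -1.55 to 0.13; edgeR adjusted p = 0.527), and leaving out 1 library gave values from -1.18 (lf:Yap replicate 1 left out; adjusted p = 0.258) to -0.47 (lf:Yap replicate 3 left out; adjusted p = 0.729). The 23 tested macrophage marker rows summed to 673, 459 and 420 CPM in WT and to 262, 381 and 482 CPM in lf:Yap. Of these rows 19 were below 0 on the log2 scale and 4 above, with a median of -0.38. Among all 24674 tested genes 13123 were below 0. By edgeR 0 of the 23 rows passed, beside 0.665% of all genes. An unadjusted edgeR p under 0.05 was seen for 2 rows, beside 11.3% of all genes. lf:Yap replicate 3, the lowest library in apoeb, had the highest sum of the lf:Yap libraries. The part of macrophages in the level of apoeb was not tested.

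**Figure D3:**
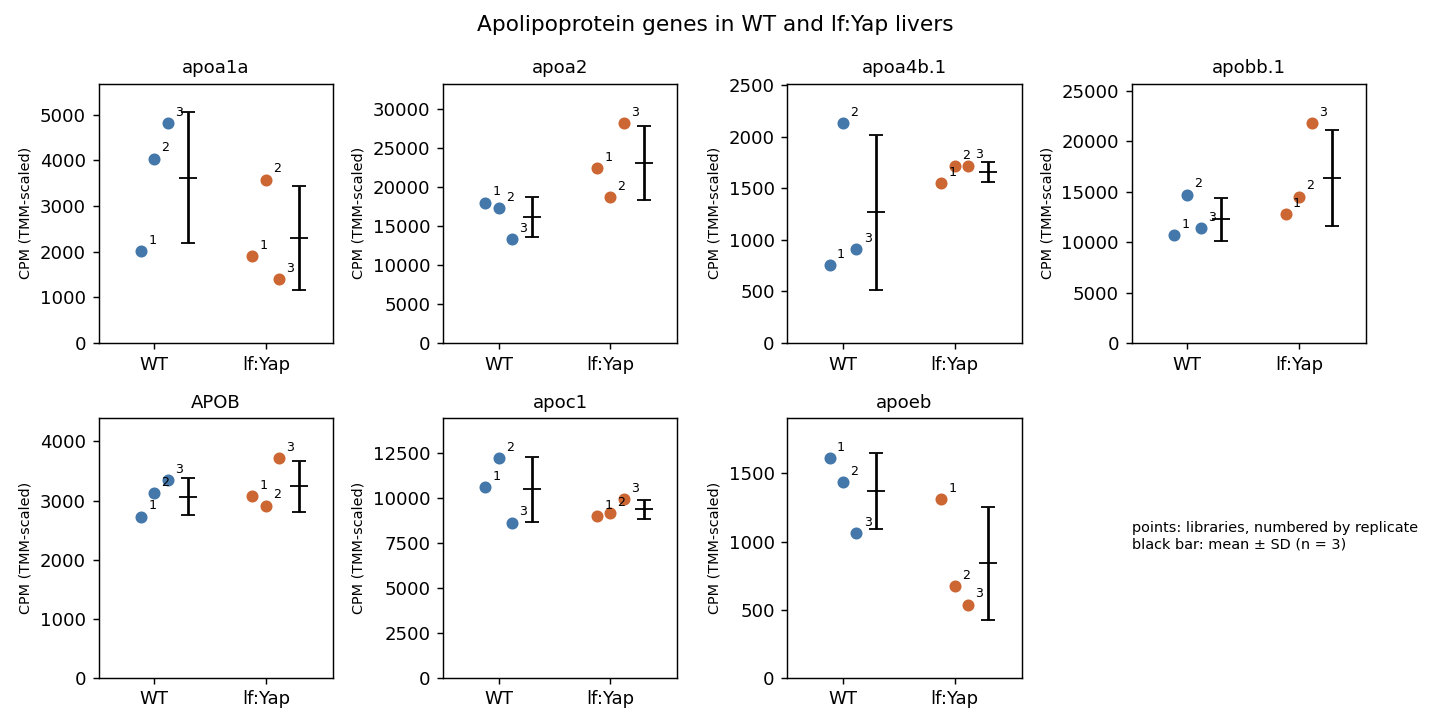
CPM of the 7 apolipoprotein genes (vertical axes, from 0) in the 3 WT libraries (blue) and the 3 lf:Yap libraries (orange), numbered by replicate, with the mean ± SD beside each group. apoa2 is the one gene whose groups do not overlap, from 13284 to 18000 CPM in WT and from 18764 to 28212 CPM in lf:Yap.

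How large a change these libraries leave room for differed from gene to gene. For 3 of the 7 genes, apobb.1, apoc1 and APOB, the 95% interval of the log2 fold change lay within 1 and -1, as it did for 33.2% of all tested genes. apoa2 reached just past 1. The intervals of apoa1a and apoeb extended below -1 and that of apoa4b.1 above 1. A change of more than 2-fold was thus not excluded for them or, by a narrow margin, for apoa2. The interval of apobb.1 ended just below 1, at 0.989, and its reads cannot be told apart from those of HPCAL1.

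**Figure D4:**
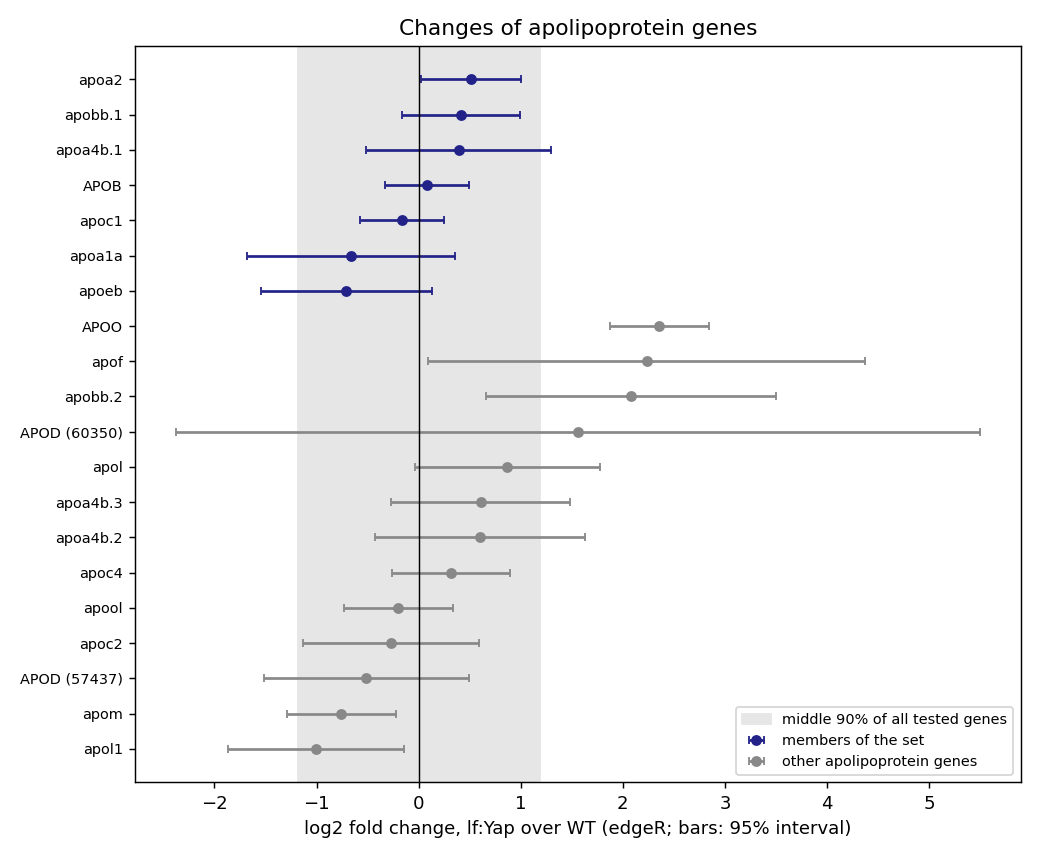
log2 fold change of lf:Yap over WT (horizontal axis) with its 95% interval from edgeR for the 7 genes (dark blue) and 13 other apolipoprotein rows (grey), with the middle 90% of all tested genes shaded from -1.18 to 1.19. The 7 genes lie between -0.71 and 0.51, inside that band, while APOO, apof, apobb.2 and the APOD row ENSDARG00000060350 lie above it.

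Many apolipoprotein genes sit side by side. In the RefSeq annotation of GRCz12tu the order apoa4b.1, apoa4b.3, apoa4b.2, apoeb, apoc1, apoc4, apoa2, apoc2 runs along one chromosome, with 3 other genes in between. The 4 genes of this cluster that belong to the set lay at 0.39, -0.71, -0.16 and 0.51 on the log2 scale, in that order. Of the 8 apolipoprotein genes 5 were above 0 and 3 below, from -0.71 to 0.61. By edgeR 0 of 8 passed, beside 0.665% of all genes tested. The apoa4b genes lay at 0.39 to 0.61, whereas the adjoining apoeb and apoc1 lay below 0.

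**Figure D5:**
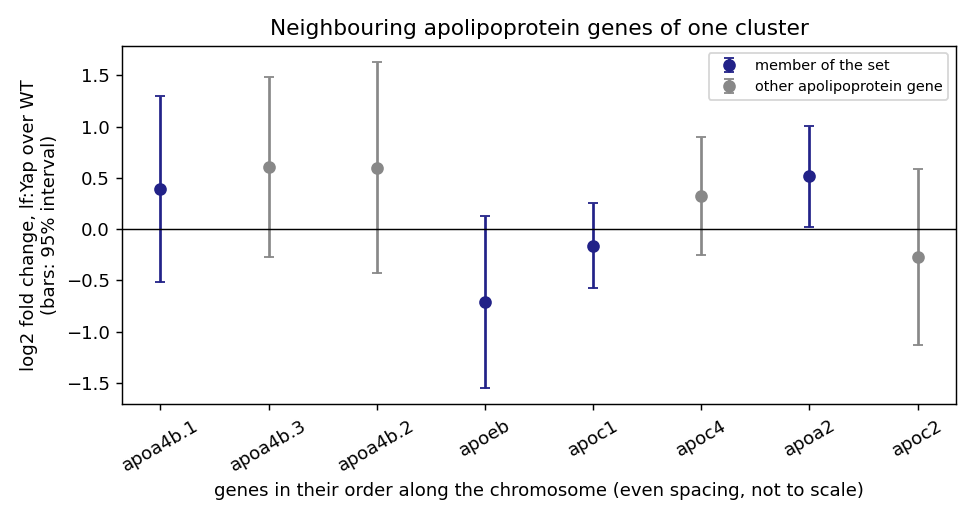
log2 fold change of lf:Yap over WT (vertical axis) with its 95% interval for 8 apolipoprotein genes in their order along the chromosome (horizontal axis, evenly spaced). The values run from -0.71 at apoeb to 0.61 at apoa4b.3, and apoa2 is the gene whose interval stays above 0.

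Among 13 other apolipoprotein rows tested, 1 rose and 0 fell by edgeR (0.555% of all genes rose and 0.109% fell). DESeq2 called 2 of the rows and limma-voom 1, where they called 4.57% and 0.754% of all genes. These counts are a description and no test of the list, which was chosen with earlier results of these data known. The gene that rose was APOO (ENSDARG00000026444), whose product is known as a subunit of the mitochondrial MICOS complex that shapes cristae rather than as a coat protein of lipoproteins. It read 2.06, 1.99 and 2.39 CPM in WT and 10.9, 11.1 and 10.98 CPM in lf:Yap, or 5.13-fold more. On the log2 scale this was 2.36 ± 0.21 (SE), with an edgeR adjusted p of 0.00830. It passed in each fit that left out 1 library (adjusted p 0.0324 to 0.0447). Its relative apool, of the same complex, stood at -0.20 ± 0.23 on the log2 scale (SE; edgeR adjusted p = 0.833).

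The other rows of this list did not pass. apom, whose product carries sphingosine-1-phosphate on HDL, read 1077.6, 1297 and 865 CPM in WT replicates 1, 2 and 3 and 599, 771 and 549 CPM in lf:Yap replicates 1, 2 and 3, without overlap (-0.76 ± 0.23 on the log2 scale, SE; edgeR adjusted p = 0.260). apoc2, the cofactor of lipoprotein lipase, overlapped between the groups at 714 to 1219 CPM for WT against 588 to 1289 CPM for lf:Yap. apof, named after its values were seen, encodes an inhibitor of lipid transfer in mammals. It read 19.2, 2.65 and 59.17 CPM in WT and 153, 111 and 116 CPM in lf:Yap, or 2.23 ± 0.91 on the log2 scale (SE; edgeR adjusted p = 0.419). Of the 13 rows 6 had groups without overlap, 4 with lf:Yap above WT and 2 below, where 17.6% of all tested genes had none. The list's median log2 fold change was 0.60, with 8 rows above 0.

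Among genes of the machinery that builds and exports apoB particles, no tested row passed. Of 18 tested rows of lipoprotein assembly and secretion 0 passed by edgeR, DESeq2 or limma-voom, which called 0.665%, 4.57% and 0.754% of all genes. Of these rows 1 had an unadjusted edgeR p under 0.05, beside 11.3% of all genes. The median log2 fold change of the 18 rows was 0.11, with values from -0.26 to 0.58. MTTP, the transfer protein that lipidates apoB, read 64.1, 70.9 and 75.3 CPM in WT and 78.6, 76.0 and 95.5 CPM in lf:Yap (0.25 ± 0.19 on the log2 scale, SE; edgeR adjusted p = 0.707); it was named after its values were seen. DGAT2, which completes triglyceride synthesis, had a log2 fold change of 0.11 ± 0.23. PLA2G12B, a catalytically inactive phospholipase needed for particle lipidation, had one of -0.14 ± 0.39, and creb3l3a, a membrane-bound transcription factor of lipid metabolism, one of 0.17 ± 0.49 (SE).

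Of 11 rows of HDL formation and remodelling 0 passed by edgeR, DESeq2 or limma-voom, which called 0.665%, 4.57% and 0.754% of all genes. An unadjusted edgeR p under 0.05 was seen for 1 above WT and 1 below, beside 11.3% of all genes. The median log2 fold change of the 11 rows was 0.17. CETP, the cholesteryl ester transfer protein, had a log2 fold change of 0.34 ± 0.28 (SE). LIPC, hepatic lipase, had one of 0.23 ± 0.27, and ABCA1, the cholesterol exporter that lipidates apoA-I, one of -0.31 ± 0.35 (SE).

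Of 13 tested lipoprotein receptor rows 1 rose by edgeR, where 0.555% of all tested genes rose. The list was chosen with earlier results of these data known, so this count is a description and no test of the list. The row that rose was ldlra, the receptor that binds apoB and apoE particles. It read 274, 142 and 117 CPM in WT replicates 1, 2 and 3 and 2040, 1934 and 1618 CPM in lf:Yap replicates 1, 2 and 3 (edgeR adjusted p = 0.0144). The adjusted p was 0.0883 when WT replicate 2 was left out, 0.0544 when WT replicate 3 was, and 0.0604 when lf:Yap replicate 1 was. The paralog ldlrb, named after its values were seen, had a log2 fold change of 0.02 ± 0.26 (SE; edgeR adjusted p = 0.990). LRP1, a remnant receptor that also binds apoE, had a log2 fold change of -0.48 ± 0.33, and sdc2, a heparan sulfate proteoglycan gene, one of 0.21 ± 0.18 (SE).

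Of 25 regulator rows known to act on apolipoprotein genes 1 rose by edgeR, 9 were called by DESeq2 and 1 by limma-voom, where the tests called 0.665%, 4.57% and 0.754% of all genes. An unadjusted edgeR p under 0.05 was seen for 6 above WT and 4 below, beside 11.3% of all genes. The list was chosen with earlier results of these data known, so its counts are a description and no test of the list. The gene that rose was nr1d2a, a Rev-erb repressor, from 47.7, 27.9 and 32.7 CPM in WT to 242, 257 and 251 CPM in lf:Yap (adjusted p = 0.00924, edgeR; 0.0543 without WT replicate 3). Other Rev-erb rows, named after their values were seen, had opposite signs. NR1D2 (ENSDARG00000009594) read 74.6, 93.4 and 90.4 CPM in WT and 39.0, 57.2 and 47.3 CPM in lf:Yap. Its log2 fold change was -0.85 ± 0.22 (SE), with an adjusted p of 0.190 by edgeR and 0.0236 by DESeq2. For NR1D1 it was 1.03 ± 0.30 (SE), with an edgeR adjusted p of 0.256. HNF4A, a nuclear receptor that drives many apolipoprotein genes in mammalian hepatocytes, read 193, 166 and 145 CPM in WT and 357, 337 and 256 CPM in lf:Yap. Its groups did not overlap, and its log2 fold change of 0.92 ± 0.21 (SE) had an adjusted p of 0.153 by edgeR and of 0.0112 by DESeq2. CEBPD, an acute-phase transcription factor, had a log2 fold change of 0.65 ± 0.32. Named after its values were seen, NR1H4, the bile acid receptor FXR, read 60.7, 52.5 and 71.6 CPM in WT and 20.7, 36.3 and 33.5 CPM in lf:Yap (-1.03 ± 0.27 on the log2 scale, SE; edgeR adjusted p = 0.194, DESeq2 0.0238).

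Other secreted liver proteins gave the scale for these values. Of 30 tested rows 0 passed by edgeR, 1 was called by DESeq2 and 0 by limma-voom. The tests called 0.665%, 4.57% and 0.754% of all genes. An unadjusted edgeR p under 0.05 was seen for 3 rows above WT and 0 below, beside 11.3% of all genes. The median log2 fold change of the 30 rows was -0.03. tfa, the transferrin gene, read 20324, 22529 and 24218 CPM in WT and 41076, 29871 and 41430 CPM in lf:Yap, without overlap (0.74 ± 0.18 on the log2 scale, SE; edgeR adjusted p = 0.169, DESeq2 0.0377). serpina1, a protease inhibitor gene, and fetub, a fetuin gene, had log2 fold changes of 0.17 ± 0.35 and -0.29 ± 0.52 (SE), and each spread at least 2-fold within a group.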

How the data were processed

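RNA from adult liver was sequenced in 3 WT and 3 lf:Yap libraries. The deposited table holds raw read counts per Ensembl gene, made by the authors with STAR 2.3.0e and HTSeq 0.6.0, per the submitters' processing notes. For genome build, annotation and strand setting: not given in the sources used here. Symbols were matched to 17999 of 25640 gene IDs. Every row sums to at least 30 counts.

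Counts were fitted with edgeR 4.0.16 in R 4.3.3 (TMM scaling, filterByExpr, robust quasi-likelihood test, Benjamini-Hochberg adjustment over all 24674 genes kept, threshold 0.05). The filter removed 966 genes. Library totals of 71581315 to 87543545 counts leave little counting error in these genes, so the spread between libraries sets the precision (common biological coefficient of variation 44.9%). DESeq2 1.42.0, limma-voom (limma 3.58.1), other scalings and filters, a replicate block and leaving out each library were the alternatives. A term for pancreas reads and removal of the HPCAL1 row were added after the data were seen. Shares of counts were compared by two-sided exact permutation tests (scipy 1.17.1). The fit was tested on simulated counts. The members and lists were chosen with earlier results of these data known. All members were named, and from each list the genes that passed and the 3 with the highest mean CPM, with exceptions marked in the text; marker lists were summed. Gene order comes from RefSeq for GRCz12tu, used for names and neighbours only. No transcript lengths were used, so shares among genes compare reads and not numbers of transcripts.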

Additional observations from a re-analysis of the deposited data

How the results depend on the processing

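In all 17 alternatives 0 of the 7 apolipoprotein genes passed, and each kept its sign except APOB, whose log2 fold change was -0.059 with library totals only and -0.032 to 0.15 without 1 library (below 0 without lf:Yap replicate 3). The genes called in the whole table went from 164 to 1073 with DESeq2, 105 with the pancreas term, 17 with the replicate number as a block, and 32 to 94 without 1 library. The calls in the context lists went from 3 to 15 with DESeq2, 1 with the replicate block and 1 to 4 without 1 library. Under the block the adjusted p of APOO was 0.0626 and of nr1d2a 0.0560 (edgeR). Deviations of same-numbered libraries correlated at 0.077, 0.0307 and -0.212, so the numbers were not taken to pair the samples. Only lf:Yap replicate 1 correlated best with the library of its own number. With the block the share difference stayed at 0.348 percentage points (exact sign-flip p = 1.0) and the apobb.1 share difference at 3.25 points (exact sign-flip p = 0.25). With 3 pairs 0.25 is the smallest p that the sign-flip test can give. Without 1 library the share difference ran from -0.108 to 0.628 points and the apobb.1 share difference from 1.99 to 4.57 points. Among genes that did not pass, some log2 fold changes turned sign. Without 1 library DGAT2 ran from -0.11 to 0.27, PLA2G12B from -0.42 to 0.23, creb3l3a from -0.61 to 0.54, LIPC from -0.032 to 0.36, serpina1 from -0.29 to 0.43 and fetub from -0.70 to 0.0595. The sign turned for DGAT2, LIPC and serpina1 without lf:Yap replicate 2, for PLA2G12B without WT replicate 3 (0.23) or lf:Yap replicate 2 (0.049), for creb3l3a without lf:Yap replicate 3, and for fetub without WT replicate 2 (0.049) or lf:Yap replicate 1 (0.0595). It also turned for DGAT2 with library totals (-0.032), for creb3l3a with limma-voom (-0.099) and the block (-0.11), and with the pancreas term for PLA2G12B (0.0079), creb3l3a (-0.28) and fetub (0.17). The cause of these moves was not tested. Depth does not limit the members, each with at least 38702 reads per library.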

Other observations

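Among 311 genes with a zebrafish symbol and a mean of at least 100 CPM, 3 had the pattern most like the summed CPM of the 7 apolipoprotein genes over the 6 libraries. They were zgc:195173 (Pearson r = 0.950 on log2 CPM), cry3a, a cryptochrome-family gene (r = 0.917), and gpd1c, a glycerol-3-phosphate dehydrogenase gene (r = 0.850). cry3a read 116, 113 and 74.5 CPM in WT replicates 1, 2 and 3 and 133, 107 and 343 CPM in lf:Yap replicates 1, 2 and 3, and its highest library, lf:Yap replicate 3, was also the highest in the summed apolipoprotein genes. These are descriptions over 6 libraries, which share depth and scaling.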
